A study of Phaseolus vulgaris with 12 samples.

Results

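The 100 genes described here were chosen by their transcript level in a single dwarf bean library, drought 6PP replicate 3. That level stood farthest above the other 9 libraries that could be used. The other drought 6PP samples were not compared. Of the 27996 genes in the expression tables, 10025 reached at least 10 TPM (a transcript level: exon reads divided by transcript length and scaled to the same total in every library) in that library. Each was ranked by its TPM there, plus 0.1, over its highest TPM among the other 9 libraries, plus 0.1, and the 100 genes with the highest ratio were taken as members. Genes that the study's paper names were left out, and 2 of them would otherwise have been in the list. The members were thus selected on their own TPM values, so the excess in the drought 6PP library is given as a description, without a test, and it has no replicate check.

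The study sequenced leaf RNA of dwarf bean (Phaseolus vulgaris, cultivar Messi) in a design of 2 seed coatings by 2 watering regimes, with 3 samples in each of the 4 groups and 5 plants pooled in each sample. Seeds carried either a polymer alone (polymer groups) or the same polymer with 114 mM 6PP (6PP groups), so every plant received the polymer. Leaves were trifoliate leaves of plants that were either irrigated throughout (watered) or left without irrigation for about 16 days from the second-trifoliate stage until they wilted (drought). Only 1 of the 3 drought 6PP files could be used, which leaves 10 libraries: 1 of drought 6PP and 3 each of drought polymer, watered 6PP and watered polymer.

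6PP (6-pentyl-α-pyrone) is a volatile lactone with a coconut smell that Trichoderma fungi release and that plants respond to. When leaves dry out, stomata close, photosynthesis genes are commonly lowered, and genes for osmoprotectants, protective proteins and hormone signalling are commonly raised. A plant transcript is made from DNA as a precursor whose introns are then cut out, so reads that span an exon-exon junction come from RNA that has been spliced. The files pair none of the members with a gene symbol, and none of their identifiers matched the reference table of gene names, so the members are given by identifier, gene structure and position, without a function. The leaf origin was checked on 6 chlorophyll-binding protein genes that the paper identifies, components of the light-harvesting antenna and none of them members. All 6 were read in every library. Their summed level was 14047 to 16328 TPM in the 6 watered libraries, 1645 to 2794 TPM in drought polymer and 534.5 TPM in the drought 6PP library, which was the lowest library for each of the 6. The part of this difference in the members' levels was not tested.

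The 10 libraries held 39974999 to 55648172 gene reads, and the drought 6PP library held 40731205. That library stood apart in 3 properties of the whole table. Gene reads that did not count as exon reads, which the tables call intron reads, were 7.997% of all gene reads there and 4.97% to 6.35% in the other 9 libraries. Reads across exon junctions were 46.4% of exon reads there and 49.1% to 53.9% elsewhere. Gene reads were 86.1% of the mapped total implied by the RPKM values, and 94.3% to 96.3% elsewhere. The coating, the watering, this library's composition and the single pool of plants cannot be told apart for any level in it, and in a leaf extract a change in the share of a cell type cannot be told apart from a change in RNA per cell.

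The members fell into 2 groups that the rule had not used. In 59 of them at least 1% of exon reads in the drought 6PP library spanned an exon junction, and these are called spliced members. The other 41 had less than 1% of such reads and are called unspliced members; 30 of these have a single annotated exon, where no junction exists, and 11 have several exons. Among all 10025 genes with at least 10 TPM, 1373 were without spliced reads by the same limit. Of genes with more than 1 exon, 15.7% of the members (11 of 70) and 2.10% of the genes (186 of 8838) were without spliced reads. The 2 groups were formed after the values had been seen, so they are compared by description only.

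The spliced members had a lower median in all 9 other libraries, and the lowest medians were in watered plants. It was 70.9 TPM in the drought 6PP library. It fell to 7.98, 6.55 and 5.21 TPM in the drought polymer libraries, 2.28, 2.35 and 2.30 TPM in the watered 6PP libraries, and 2.80, 2.71 and 2.02 TPM in the watered polymer libraries. The 3 drought polymer medians all lay above the 6 watered medians, but single members differed: in 18 of the 59 the highest other library was a watered one. This order of medians was not particular to the members. Over the 8652 genes with spliced reads and at least 10 TPM in the drought 6PP library, it was the same with a smaller difference. Their medians were 34.5 to 37.0 TPM in drought polymer and 28.3 to 31.2 TPM in the watered libraries. Together the spliced members took 2.11% of all TPM in the drought 6PP library and 0.101% to 0.244% in the others.

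As a group, the unspliced members did not follow watering in this way. Their median was 154.9 TPM in the drought 6PP library, 17.0, 21.8 and 9.54 TPM in the drought polymer libraries, 16.5, 23.3 and 16.8 TPM in the watered 6PP libraries, and 19.5, 15.5 and 13.4 TPM in the watered polymer libraries. The drought and watered medians overlapped, and the lowest was that of drought polymer replicate 3. Over the 1373 genes without spliced reads, by contrast, the drought polymer medians (27.6 to 29.3 TPM) all lay above the watered ones (22.5 to 23.9 TPM). Single unspliced members differed from each other too. In 10 of the 41 drought polymer lay wholly above watered polymer and in 2 wholly below. Over all genes the shares were 31% above and 28.2% below, so unspliced members wholly below were comparatively few. Together the unspliced members took 9.36% of all TPM in the drought 6PP library and 0.276% to 1.48% in the others. In 21 of the 41 unspliced members the TPM of drought polymer replicate 2 was at least 2 times that of drought polymer replicate 3, each with 0.1 added, which was so in 1 of the 59 spliced members. Of the 1373 genes without spliced reads it was so in 5.24%, and of all 10025 genes in 0.758%. The 1373 genes without spliced reads, with the 41 members among them, together took 32.7% of TPM in the drought 6PP library and 14.7% to 19.0% in the others. These genes were defined by at least 10 TPM and few junction reads in that library, so its higher share was partly set by the choice.

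**Figure D1:**
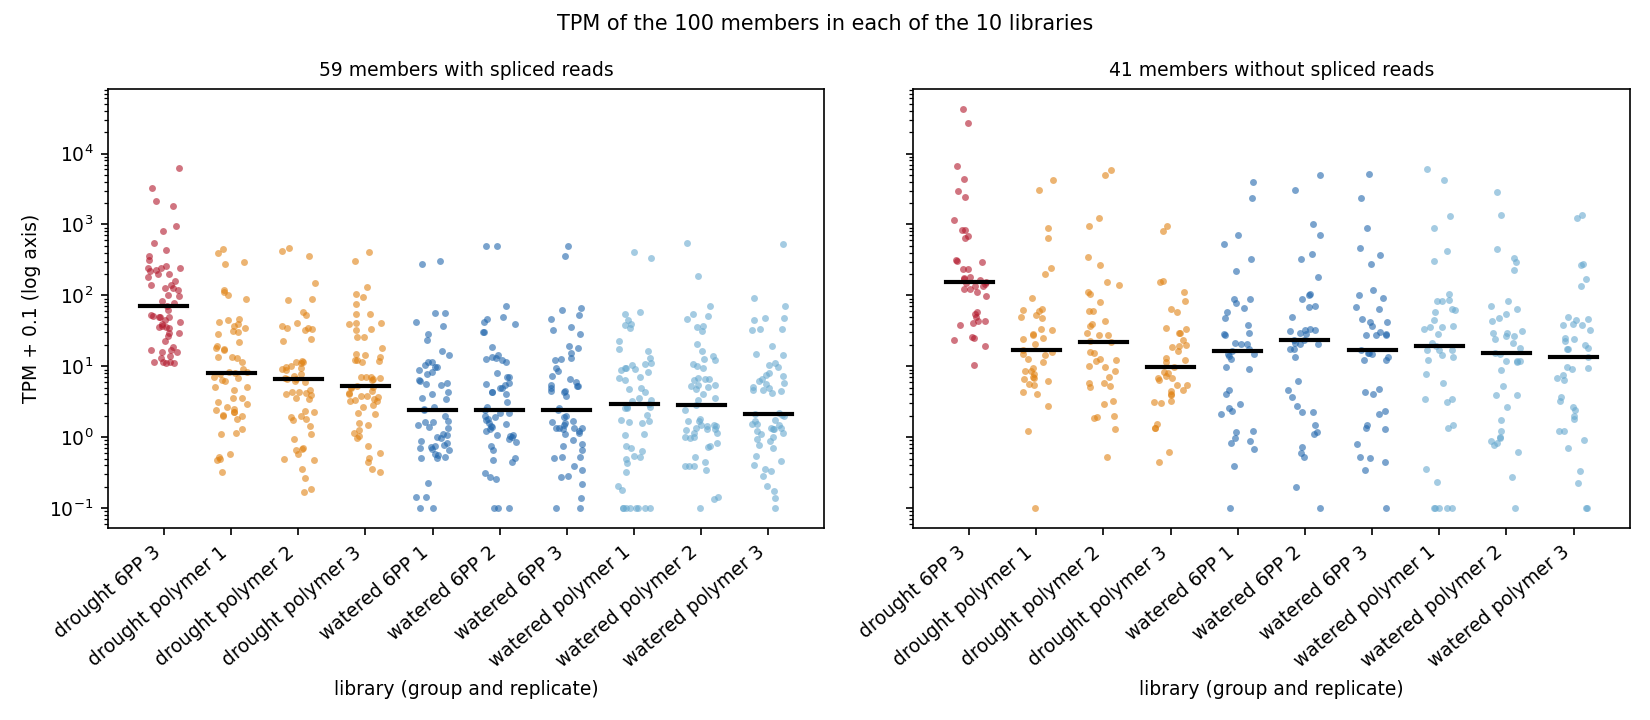
TPM plus 0.1 of each member (points, log axis) in each of the 10 libraries, with the 59 spliced members on the left and the 41 unspliced members on the right, and the median as a black bar. The spliced members' median falls from 70.9 TPM in the drought 6PP library to between 5.21 and 7.98 in drought polymer and between 2.02 and 2.80 in the watered libraries, whereas the unspliced members' medians lie between 9.54 and 23.3 TPM in all 9 other libraries.

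Over all 100 members the level in the drought 6PP library ran from 10.3 to 42642 TPM, with a median of 122.6 and quartiles of 37.4 and 247.9. Of the members, 54 were over 100 TPM and 11 over 1000 TPM. Each rested on between 73 and 755220 gene reads with a median of 3038. The ratio ran from 72.1 down to 4.28 with a median of 6.19, so most members lay near the lower end: 19 had a ratio over 10, 4 over 20, and 29 under 5. On the log2 scale of CPM (gene reads scaled to the same library total, without regard to length), the median of the members' differences between the drought 6PP library and the drought polymer mean was 3.77, against -0.09 over all genes. The rule fixed the sign of that difference.

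The same ratio formed for each other library in turn gave no gene past 4.28, and the highest value in any of the 9 was 4.14. Genes past a ratio of 2 numbered 431 in the drought 6PP library and 0 to 11 in the others. Its count of genes with their highest level there, 2090, was not outside the range of the others, which was 529 to 2987. Each of the other 9 was set against replicates of its own group, but the drought 6PP library was set against none. The ratios and counts in this paragraph are therefore not like for like.

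The library that came next to drought 6PP was a drought polymer library for 61 members, a watered 6PP library for 18 and a watered polymer library for 21. Over all 10025 genes the corresponding shares were 62.1%, 17.1% and 20.8%, so the members' order of groups was close to that of other genes. Of the 61, drought polymer replicate 1 alone accounted for 42. The split differed by splicing, with a drought polymer library next in 41 of the 59 spliced members and in 20 of the 41 unspliced ones. Among all 10025 genes it was next in 5456 of the 8652 with spliced reads and in 771 of the 1373 without, a difference in the same direction. In 58 members the next library was at 10 TPM or more and in 4 it was below 1 TPM. In 13 members at least 1 other library was listed at 0 TPM. Watered polymer replicate 1 listed 13 members at 0, and each other library listed 0 to 4. That replicate is 1 of the 3 watered polymer libraries in the tests below.

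The gene with the highest ratio was PHAVU_001G083800g, with 8 exons on chromosome 1 (14916196 to 14920955), at 35.3 TPM in the drought 6PP library. It stood at 0.223, 0.085 and 0.221 TPM in drought polymer, 0.124, 0.176 and 0.180 TPM in watered 6PP and 0.391, 0.240 and 0.182 TPM in watered polymer. Every other library was thus below 1 TPM, and the ratio was 72.1.

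PHAVU_007G040200g, with 3 exons on chromosome 7 (3243401 to 3245279), had 138.8 TPM in the drought 6PP library and a ratio of 53.9. Its TPM was 0.390, 0.163 and 0.256 in drought polymer, 0.636, 1.13 and 0.822 in watered 6PP and 2.48, 1.38 and 0.909 in watered polymer. The drought polymer libraries were therefore its lowest group.

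PHAVU_009G066100g has a single exon on chromosome 9 (11313783 to 11315201) and a ratio of 49.0. Its level was 58.9 TPM in the drought 6PP library, 1.10, 0.421 and 0.521 TPM in drought polymer, and listed at 0 in all 6 watered libraries. It was read only in the libraries of drought plants.

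PHAVU_002G210400g, with 8 exons on chromosome 2 (37071022 to 37076795), was the last member with a ratio over 20, at 22.1. It had 70.9 TPM in the drought 6PP library, then 3.00, 1.70 and 3.11 TPM in drought polymer, 1.52, 0.893 and 1.26 TPM in watered 6PP and 0.657, 1.34 and 1.01 TPM in watered polymer. Its drought polymer libraries all lay above its watered ones.

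The next 6 members by ratio lay between 19.4 and 13.5. PHAVU_008G192300g had 22.4 TPM in the drought 6PP library and at most 1.06 TPM elsewhere. PHAVU_007G257500g had 13.1 TPM there and at most 0.640 TPM elsewhere. In both, the libraries of the other groups overlapped.

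PHAVU_009G042800g, a gene with a single exon, had 137.3 TPM in the drought 6PP library, 7.59, 5.69 and 6.25 TPM in drought polymer, 0.773, 0.507 and 0.692 TPM in watered 6PP and 1.38, 0.875 and 1.11 TPM in watered polymer. PHAVU_006G188500g, also of a single exon, had 54.7 TPM, then 3.95, 1.89 and 2.95 TPM, 0.294, 0.098 and 0.249 TPM, and 0, 0.171 and 0.126 TPM in the same order of groups. In PHAVU_011G081100g the values were 36.4 TPM in the drought 6PP library, 2.54, 0.559 and 0.874 TPM in drought polymer, 0 in all 3 watered 6PP libraries and 0, 0.042 and 0 TPM in watered polymer. In these 3 members drought polymer lay wholly above both watered groups.

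PHAVU_009G127500g, with 18 exons, differed from them, at 29.6 TPM in the drought 6PP library against 1.02, 0.601 and 0.657 TPM in drought polymer and 1.65, 0.740 and 1.23 TPM in watered polymer. Its drought and watered libraries overlapped.

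**Figure D2:**
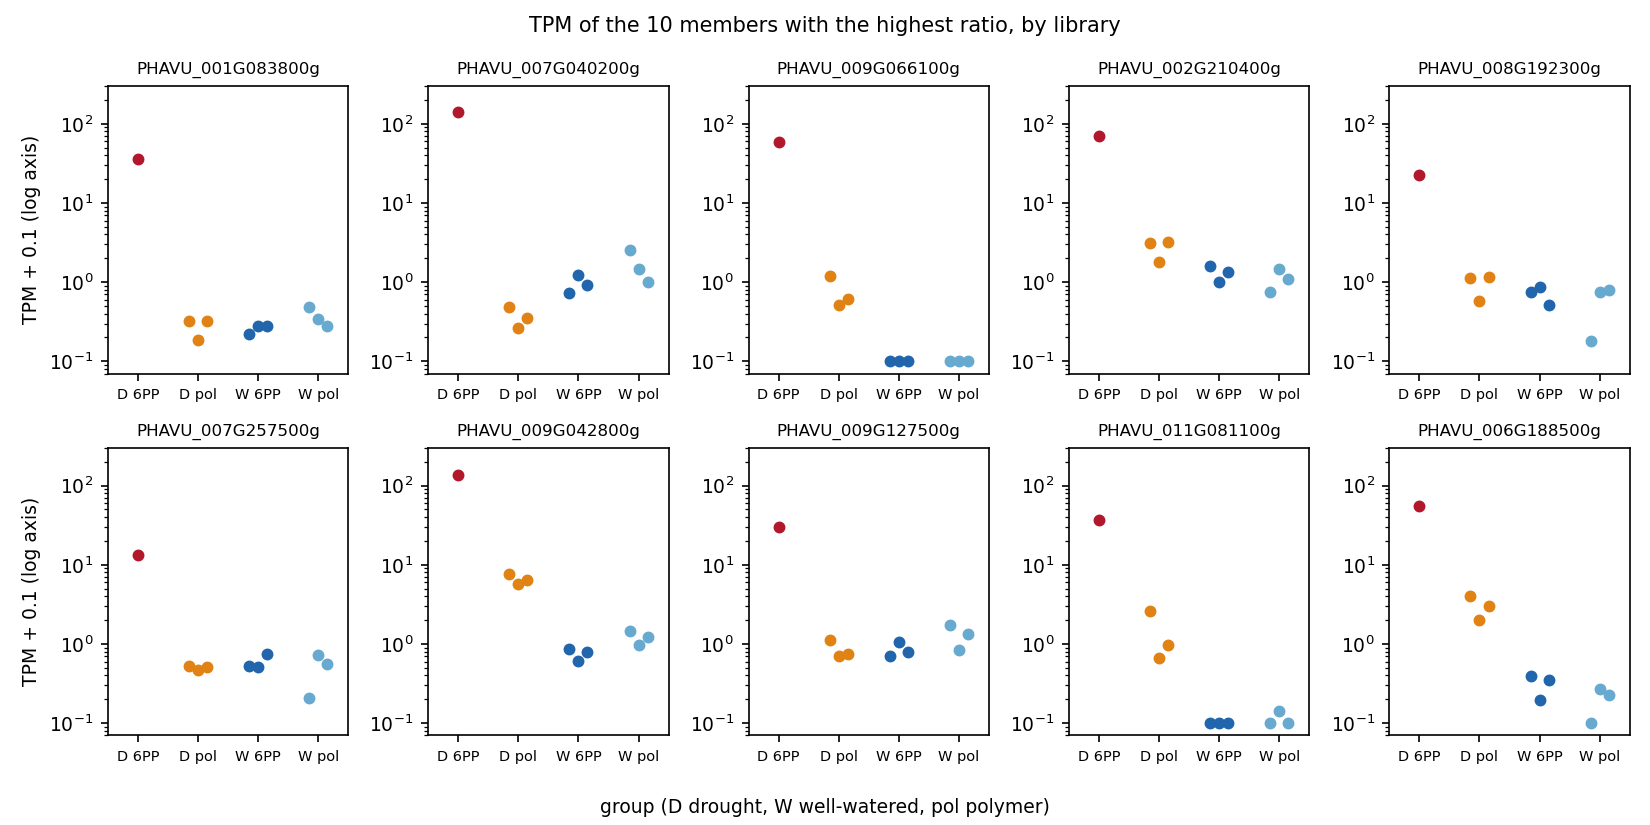
TPM plus 0.1 (log axis) of the 10 members with the highest ratio, 1 point per library, with D for drought, W for watered and pol for polymer; points at 0.1 are libraries listed at 0 TPM. In PHAVU_009G066100g, PHAVU_002G210400g, PHAVU_009G042800g, PHAVU_011G081100g and PHAVU_006G188500g the 3 drought polymer points lie above all 6 watered points, and in PHAVU_007G040200g they lie below them.

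The members with the highest levels were mostly unspliced and were also abundant elsewhere. PHAVU_002G203700g reached 42642 TPM in the drought 6PP library, against 4260, 5953 and 963.8 TPM in drought polymer, 3964, 5002 and 5103 TPM in watered 6PP and 6122, 2866 and 1365 TPM in watered polymer. PHAVU_011G120500g reached 26823 TPM, against 3025, 4959 and 811.6 TPM, 2395, 3033 and 2329 TPM, and 4187, 1367 and 1227 TPM in the same groups. In both, drought polymer replicate 3 was the lowest library of all 10, and watered polymer replicate 1 was above its own group's other two.

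PHAVU_006G154100g had 6579 TPM in the drought 6PP library, 879.8, 1239 and 157.1 TPM in drought polymer, 701.3, 1026 and 888.6 TPM in watered 6PP and 1310, 453.2 and 266.2 TPM in watered polymer. PHAVU_011G1212001g had 4332 TPM, then 637.6, 954.1 and 153.0 TPM, 529.9, 716.8 and 468.9 TPM, and 888.7, 342.1 and 273.6 TPM. Both again had their lowest value in drought polymer replicate 3.

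Of the 5 highest members only PHAVU_011G017200g, with 6 exons, was spliced, and its profile differed. It had 6272 TPM in the drought 6PP library and stayed between 308.2 and 540.6 TPM in the other 9, at 400.4, 423.8 and 414.5 TPM in drought polymer and 331.6, 540.6 and 532.0 TPM in watered polymer. Its drought polymer replicates were close to each other, and they overlapped with the watered groups.

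The 100 members summed to 11.5% of all TPM in the drought 6PP library and to 0.446% (drought polymer replicate 3) to 1.69% (drought polymer replicate 2) in the others. Without PHAVU_002G203700g and PHAVU_011G120500g, the sums were 4.52% and 0.247% to 0.603%. TPM sums to a fixed total, so a library in which a few genes take more leaves less for the rest.

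At the lower end of the list, the last 5 members were PHAVU_001G186900g (ratio 4.33), PHAVU_004G025200g (4.30), PHAVU_010G068800g (4.30), PHAVU_002G239400g (4.30) and PHAVU_009G066200g (4.28). The first 5 genes outside it were PHAVU_011G121000g (4.28), PHAVU_008G237300g (4.22), PHAVU_011G122500g (4.21), PHAVU_003G067400g (4.20) and PHAVU_002G029200g (4.19). There was no gap at the limit, and PHAVU_011G121000g and PHAVU_003G067400g, at 19942 and 15812 TPM, would have been the third and the fourth most abundant members.

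The members were shorter and had fewer exons than other genes of the library. Single-exon genes made up 30% of the members (30 of 100), 11.8% of the 10025 genes with at least 10 TPM and 21.3% of all 27996 genes. Genes with 2 to 5 exons made up 46%, 39.0% and 43.2%, and genes with more than 5 exons 24%, 49.2% and 35.5%. The median member had 3 exons and 1333.5 exonic bases in a gene of 1855 bases, whereas the median gene with at least 10 TPM had 5 exons and 1669 exonic bases in 3741. An exon length of at most 300 bases was found in 14% of the members against 1.02% of genes with at least 10 TPM and 3.82% of all genes.

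Those 14 short members held much of the summed TPM, most of it in 1 gene. Their median was 672.8 TPM in the drought 6PP library, 6 of them were over 1000 TPM, and they held 52.2% of the members' summed TPM. Of their 59864 TPM, PHAVU_002G203700g alone held 42642. TPM divides by exon length, so a given number of reads counts for more in a short gene. By exon number, the median level was 151.1 TPM in the 30 single-exon members, 125.5 TPM in the 46 with 2 to 5 exons and 56.9 TPM in the 24 with more than 5, and the median ratios were 5.20, 6.52 and 6.40.

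**Figure D3:**
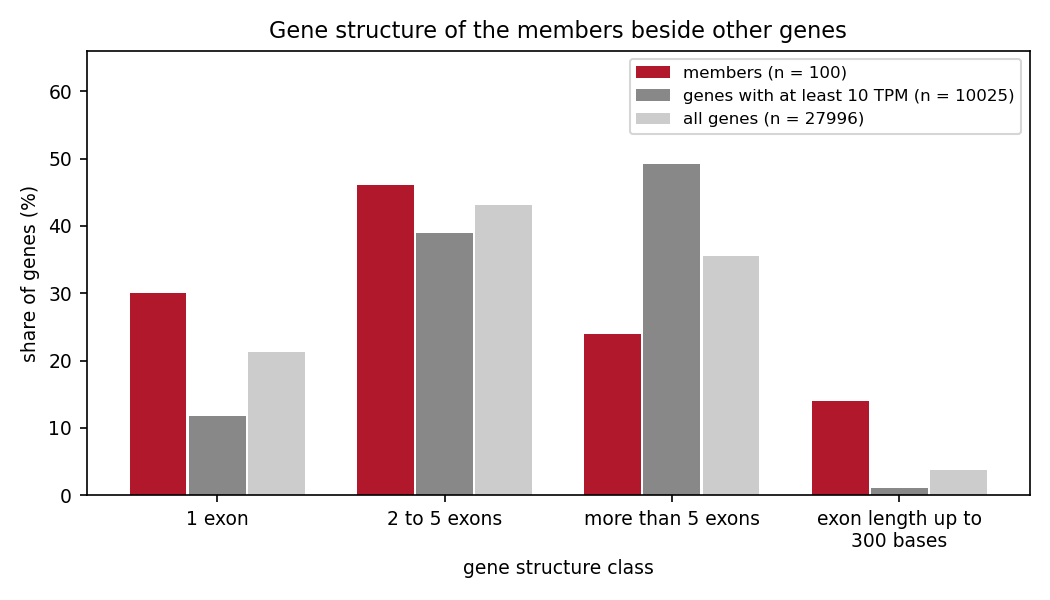
Share of genes (bars, percent) in each class of gene structure for the 100 members, the 10025 genes with at least 10 TPM in the drought 6PP library and all 27996 genes; the class of short exon length overlaps the exon-number classes. Single-exon genes are 30%, 11.8% and 21.3% of the 3 sets, and genes with more than 5 exons are 24%, 49.2% and 35.5%.

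Long, many-exon genes were present too. PHAVU_010G139300g has 19 exons, the most of any member, and stood at 62.5 TPM in the drought 6PP library, 7.81, 3.93 and 5.21 TPM in drought polymer, 7.80, 7.07 and 7.24 TPM in watered 6PP and 8.33, 10.5 and 7.23 TPM in watered polymer. PHAVU_003G143900g, with 15 exons, stood at 1798 TPM, then 273.7, 149.8 and 129.6 TPM in drought polymer, 54.4 to 70.9 TPM in the 6 watered libraries. Drought polymer overlapped with the watered groups in the first gene and lay wholly above them in the second.

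The intron share, the percentage of a gene's reads that did not count as exon reads, was examined for the 70 members with more than 1 exon. Its median in the drought 6PP library was 5.93%, close to the 5.31% of the 8838 genes with at least 10 TPM and more than 1 exon. The members' upper tail was heavier, with 15 of 70 over 20% (21.4% against 6.87% of the genes) and 4 of 70 over 50% (5.71% against 0.622%). At the other end 28 were under 5% and 3 were at 0. The class is not limited to introns, since 19 of the 30 single-exon members, which have none, also held such reads, up to 50.7% of a gene's reads.

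Although the library as a whole had the highest intron share of the 10, most members had a lower share in it than in drought polymer. Against the 3 drought polymer libraries pooled, the share was higher in 22 members, lower in 45 and equal in 3, with a median difference of -0.71 percentage points. Among the 8838 genes it was higher in 55.6% and lower in 44.1%, with a median difference of 0.16 points. By more than 5 points it was higher in 2 members (2.86%, against 2.49% of the genes) and lower in 10 (14.3%, against 2.24%). TPM is made from exon reads, so choosing members on a high TPM in this library favoured a low intron share there, and the comparison is a description only.

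The largest falls were in members with few reads elsewhere. PHAVU_001G083800g had 9.92% intron reads in the drought 6PP library and 61.5% in drought polymer, where the 3 libraries held only 65 reads of it. PHAVU_009G127500g had 5.72% and 51.8%, the latter from 326 reads. Both are among the 10 members with the highest ratio, and the 3 drought polymer libraries ranged from 50% to 67.7% in the first and from 46.9% to 54.9% in the second.

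**Figure D4:**
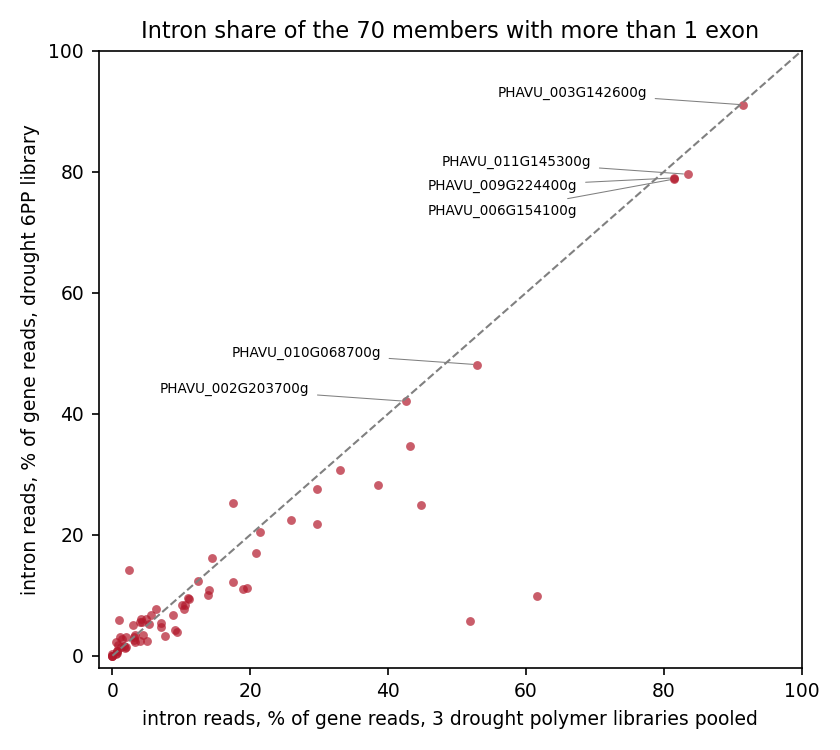
Intron reads as a percentage of gene reads in the drought 6PP library (vertical axis) against the 3 drought polymer libraries pooled (horizontal axis), 1 point for each of the 70 members with more than 1 exon; the dashed line marks equal shares. Of the points 45 lie below the line and 22 above it, and the 6 members with over 40% in the drought 6PP library, named in the plot, lie near it.

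The members with the highest intron shares had high shares in every library. PHAVU_003G142600g (2 exons, 297 exonic bases) had 91.1% in the drought 6PP library, 91.7%, 91.7% and 90.0% in drought polymer, 91.4%, 89.8% and 90.1% in watered 6PP and 92.8%, 93.8% and 94.0% in watered polymer. PHAVU_011G145300g had 79.6% in the drought 6PP library and 87.1%, 80.1% and 85.3% in drought polymer. PHAVU_009G224400g had 79.0% in the drought 6PP library and 79.5%, 83.0% and 79.3% in drought polymer. In these 3 members the share in the drought 6PP library lay within or below the range of the drought polymer libraries. The 3 members without any intron read were PHAVU_004G081500g, PHAVU_005G060800g and PHAVU_002G060900g, all of them unspliced.

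A few genes also decided the summed intron reads. Pooled over the 70 members, the intron share was 34.3%, and without PHAVU_002G203700g, PHAVU_003G142600g, PHAVU_006G154100g and PHAVU_009G224400g it was 6.37%. These 4 genes held 90.4% of the members' intron reads (586947 of 649393). The members as a whole held 19.9% of the intron reads of the drought 6PP library and 7.29% of its gene reads. Without the members that library's intron share was 6.91%, still above the 4.83% to 6.17% of the other 9 libraries.

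Members lay on all 11 chromosomes, at 6, 11, 13, 7, 7, 5, 7, 9, 15, 11 and 9 on chromosomes 1 to 11. Per 1000 genes with at least 10 TPM there were 5.74 on chromosome 1 and 19.5 on chromosome 10, the lowest and the highest, against 9.98 overall. Of the members, 6% had another member as the next gene on the chromosome, and 0.907% of the other genes with at least 10 TPM did. With at most 2 other genes between, the shares were 11% and 2.28%. By these limits the great majority of members had no other member close by. With starts within 100 kb the number was 19. These included PHAVU_011G120500g (start 21156313) and PHAVU_011G1212001g (start 21235141) on chromosome 11, both among the 5 highest members.

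The 11 close members formed 5 runs. On chromosome 10 (17352988 to 17377670) 3 unspliced members started within 23.996 kb of each other: PHAVU_010G068700g at 96.8 TPM, PHAVU_010G068800g at 302.9 TPM and PHAVU_010G069000g at 299.8 TPM in the drought 6PP library, with 21.03, 70.3 and 68.6 TPM in their highest other library, which was watered 6PP replicate 2 for all 3. The gene between them, PHAVU_010G068900g, had 20.3 TPM against at most 7.77. The next gene beyond them, PHAVU_010G069100g, lay 77014 bases away and had the opposite order. Its level was 2063 TPM in the drought 6PP library and 14925, 14788 and 13122 TPM in drought polymer.

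On chromosome 3 (1766801 to 1784458) PHAVU_003G020000g and PHAVU_003G020200g lay on the same strand with PHAVU_003G020100g between them and PHAVU_003G020300g beside them. PHAVU_003G020000g had 35.5 TPM in the drought 6PP library, 6.39, 7.14 and 6.32 TPM in drought polymer and at most 1.24 TPM in a watered library. PHAVU_003G020200g had 3305 TPM, then 452.3, 360.0 and 308.3 TPM in drought polymer and 39.3 to 55.0 TPM in the watered libraries. The flanking non-member PHAVU_003G020300g, with 2872 TPM, had 743.9, 684.8 and 568.1 TPM in drought polymer and 64.4 to 94.2 TPM in the watered libraries. All 4 genes of this stretch were highest in the drought 6PP library, and their drought polymer libraries all lay above their watered ones. The flanking gene on the other side, PHAVU_003G019900g, lay 3385 bases from the first member and was lowest in the drought 6PP library. It had 2.36 TPM there and 5.22 to 10.4 TPM in the other 9 libraries.

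Both runs on chromosome 9 were pairs of next neighbours. PHAVU_009G066100g, described above, and PHAVU_009G066200g started 17.4 kb apart on opposite strands; the latter had 23.2 TPM in the drought 6PP library, 5.35, 3.15 and 3.11 TPM in drought polymer and at most 0.575 TPM in a watered library. PHAVU_009G259600g and PHAVU_009G259700g started 17.7 kb apart on the same strand, at 83.5 and 226.4 TPM in the drought 6PP library and at most 13.1 and 34.0 TPM elsewhere, both in drought polymer replicate 1. In all 4 genes drought polymer lay wholly above the watered groups. On chromosome 5, PHAVU_005G060800g (123.1 TPM, at most 20.4 elsewhere) and PHAVU_005G061100g (2923 TPM, at most 417.5 elsewhere) had 2 other genes between them, at 44.1 and 1.98 TPM.

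**Figure D5:**
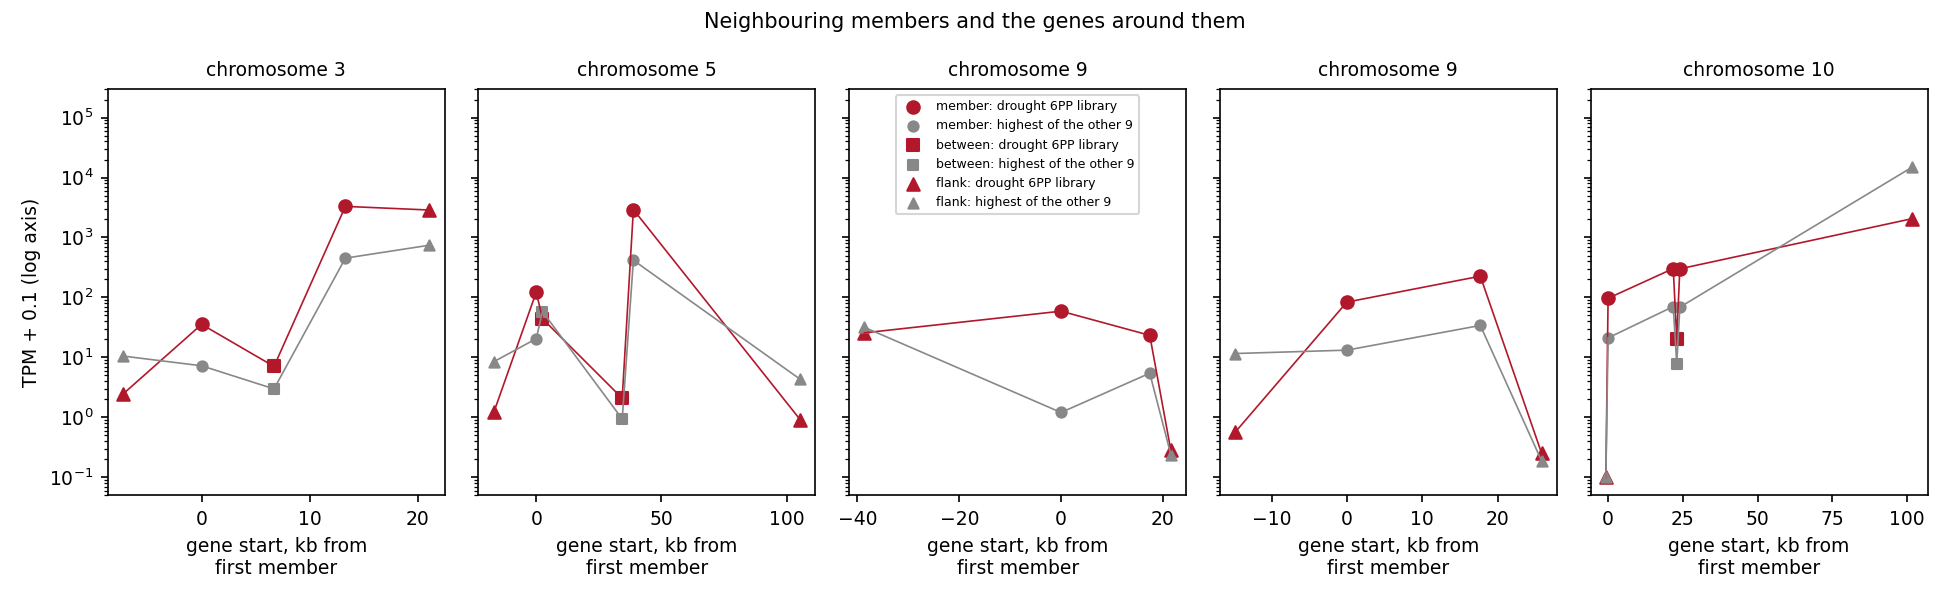
TPM plus 0.1 (log axis) of the 5 runs of neighbouring members and the genes between and beside them, against the distance of the gene start from the first member (kilobases); red is the drought 6PP library, grey the highest of the other 9 libraries, circles members, squares genes between and triangles flanking genes. In the chromosome 3 run the right flanking gene also has red above grey (2872 against 743.9 TPM), and the left one has grey above red (10.4 against 2.36 TPM). In the chromosome 10 run the right flanking gene has grey above red (14925 against 2063 TPM).

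Genes next to a member that were not members themselves were examined too. Of 104 such genes with at least 10 TPM in some library, 32.7% were highest there, against 14.8% of other genes, and 11.5% had a ratio of at least 2, against 2.49%. Beside the most abundant member, PHAVU_002G203800g, which lies 158 bases from PHAVU_002G203700g, had 16243 TPM in the drought 6PP library and 404.5 to 4300 TPM in the others, a ratio of 3.78. PHAVU_009G144500g overlaps PHAVU_009G144400g on the other strand; whether counting used strand is not given in the sources used here, so the reads of that pair cannot be told apart. Reads of the members were otherwise nearly all uniquely placed: 3 members were under 99%, and the lowest was PHAVU_004G075700g at 85.5%.

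Whether the members also responded to drought without 6PP was tested in the 9 libraries other than drought 6PP. The highest TPM of these 9 was the denominator of the ratio that chose the members, so the rule used part of these values. A gene high in any of the 9, watered or drought, needed a still higher drought 6PP level to become a member. The numerator came from a library of drought plants. The rule could therefore favour genes raised in drought leaves and pass over genes lowered there. How far this moved the counts was not tested. Counts of members higher or lower in drought polymer, here and below, are therefore not free of the choice of members. Drought polymer was compared with watered polymer by edgeR's quasi-likelihood test on gene reads, and calls needed a log2 fold change of 0.6 or more in size, a Benjamini-Hochberg adjusted p (FDR) of at most 0.01 and a Bonferroni p of at most 0.05. Of the 100 members 99 were tested, and PHAVU_004G1507000g had too few reads. Of these, 6 were called higher in drought polymer (6.06%, where 5.09% of all 21411 genes tested were) and 0 were called lower (where 7.59% of all genes were). The share called higher was near that of all genes, while no member was among the lower calls. At an unadjusted p under 0.05 by the same edgeR test, 43 members were higher (29.7% of all genes were) and 6 lower (32.4%), and DESeq2 called 27 higher (12.5% of all genes) and 1 lower (17%).

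At an FDR of at most 0.05 alone, 41 members were higher (41.4%, against 27.7% of all genes tested) and 5 were lower (5.05%, against 30.4%). The median log2 fold change was 0.56 over the members and -0.01 over all genes, positive in 67 and negative in 32. By TPM, the 3 drought polymer libraries lay wholly above the 3 watered polymer libraries in 46 members (31% of 24409 genes with reads did) and wholly below in 8 (28.2%). The spliced members held all 6 calls, 31 of the 41 higher at FDR 0.05 and 36 of the 46 wholly above, and also 3 of the 5 lower at FDR 0.05 and 6 of the 8 wholly below, with a median log2 fold change of 0.95. The unspliced members held 10 of the 41, 10 of the 46, 2 of the 5 and 2 of the 8, with a median of 0.22. Of the members tested, 59 were spliced and 40 unspliced. The same counts were not made for all spliced and unspliced genes, so this split is a description only.

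The 6 members that rose with drought in polymer plants were all spliced genes with 3 or 4 exons. PHAVU_003G101100g, on chromosome 3 (24631425 to 24633498), had 60.7, 56.8 and 58.0 CPM in drought polymer and 1.83, 2.41 and 3.11 CPM in watered polymer, a log2 fold change of 4.58 ± 0.18 (SE, FDR 8.23e-09 by edgeR). PHAVU_003G020200g, of the chromosome 3 run, had 447.3, 383.3 and 316.8 CPM against 40.4, 56.1 and 51.0 CPM, a log2 fold change of 2.96 ± 0.17 (SE, FDR 8.93e-08 by edgeR). PHAVU_010G123400g, on chromosome 10 (39347649 to 39349527), had 80.8, 52.2 and 72.3 CPM against 0.511, 0.913 and 1.41 CPM, a log2 fold change of 6.17 ± 0.38 (SE, FDR 1.59e-07 by edgeR). In these 3 the groups lay far apart, and they kept the call under all 17 alternatives of the processing.

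PHAVU_010G140800g had 34.3, 30.6 and 28.9 CPM against 10.3, 11.8 and 12.7 CPM, a log2 fold change of 1.43 ± 0.13 (SE, FDR 3.23e-06 by edgeR). PHAVU_003G045600g had 16.4, 8.19 and 9.79 CPM against 0.779, 0.931 and 1.34 CPM, a log2 fold change of 3.49 ± 0.36 (SE, FDR 9.28e-06 by edgeR). The groups did not overlap in either gene. The sixth call, PHAVU_003G249400g, named after its values were seen, had a log2 fold change of 2.81 ± 0.31 (SE, FDR 1.52e-05 by edgeR). The call of PHAVU_010G140800g was lost without drought polymer replicate 1 or 2 or without watered polymer replicate 2, where the highest FDR by edgeR was 3.29e-05 and the Bonferroni limit was missed. PHAVU_003G045600g and PHAVU_003G249400g each lost the call in 9 of 17 alternatives, with FDR values up to 8.25e-05 and 0.000163, and without watered polymer replicate 2 only 3 members were called.

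These 6 stood much higher again in the drought 6PP library. Their TPM there was 816.7 for PHAVU_003G101100g, 3305 for PHAVU_003G020200g, 429.7 for PHAVU_010G123400g, 240.3 for PHAVU_010G140800g, 217.4 for PHAVU_003G045600g and 944.4 for PHAVU_003G249400g. Their highest drought polymer libraries stood at 102.2, 452.3, 87.7, 39.0, 21.8 and 110.7 TPM. The rule required this second step, so only the drought polymer step is a tested difference.

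The 5 members that were lower in drought polymer at an FDR of at most 0.05 were PHAVU_007G040200g (log2 fold change -2.51), PHAVU_005G135000g (-1.50), PHAVU_006G040800g (-1.15), PHAVU_010G139300g (-0.65) and PHAVU_003G170800g (-0.45), with edgeR FDR values from 0.00124 to 0.0207. None of them passed the Bonferroni limit. They were named after their values were seen.

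The effect of 6PP on the members without drought was tested in the same fit, watered 6PP against watered polymer. No member was called higher or lower, where 0% of all genes were called in either direction, and the smallest member FDR by edgeR was 0.874. At an unadjusted p under 0.05 there were 2 members higher and 1 lower, where 2.23% and 3.29% of all genes were, and DESeq2 called 0 members by the same limits (1 gene higher and 3 lower over all genes). By TPM the watered 6PP libraries lay wholly above watered polymer in 3 members (2.81% of genes) and wholly below in 5 (7.4%). The median log2 fold change was 0.17 over the members and 0.01 over all genes. No difference by 6PP in watered leaves was detectable for the members at 3 samples per group, and the effect of 6PP in drought leaves was not tested, since that contrast chose the members.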

How the data were processed

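Leaf RNA of 12 samples was sequenced, and the authors mapped the reads and counted them per gene in CLC Genomics Workbench; their methods name the BAT93 genome, the tables name no assembly, and coordinates are quoted as listed. The deposited counts (total and unique gene reads, exon, intron and exon-exon reads) are raw, and the deposited TPM and RPKM values are exon reads scaled by the authors for length and depth. The authors also deposited the share of intron reads as a fraction of gene reads, which was recomputed here in percent from the counts. The file of drought 6PP replicate 1 held 12 tables and that of replicate 2 held 2, of which 1 equalled replicate 3 in every cell; neither was used. Groups came from the sample titles. The members, lists and tests were chosen with earlier results of these data known. The named members were the 10 highest ratios, the 5 on each side of the limit, the 5 highest TPM, runs of neighbours, the extremes of intron share and exon number and the 5 smallest p per direction; no member was under 80% uniquely placed reads.

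Gene reads of the 9 other libraries were fitted with 3 group means in edgeR 4.0.16 (TMM, filterByExpr, quasi-likelihood test, R 4.3.3), with Benjamini-Hochberg adjustment over 21411 genes. The procedure was checked on simulated data. Alternatives were DESeq2 1.42.0, limma 3.58.1 on log2 TPM, other filters, scalings and counts, a replicate block and leaving out each library. The series' design text gives each replicate as a pool of 5 plants. Descriptions of the drought 6PP library cover 1 pool, and read numbers limit the precision of low members.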

Additional observations from a re-analysis of the deposited data

Results flagged for a closer look

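In 8 members the libraries lay in opposite orders under the 2 coatings: the 3 drought polymer libraries lay wholly below the 3 watered polymer libraries, while the single drought 6PP library lay above all 3 watered 6PP libraries. They were PHAVU_007G040200g, PHAVU_008G104900g, PHAVU_005G135000g, PHAVU_003G0317001g, PHAVU_010G016000g, PHAVU_002G239000g, PHAVU_008G230700g and PHAVU_006G040800g. Of all genes, 28.2% had drought polymer wholly below watered polymer. None of the 8 was called for drought in polymer plants, and 3 of them, PHAVU_007G040200g, PHAVU_005G135000g and PHAVU_006G040800g, had an FDR of at most 0.05 by edgeR. In 5 members the orders were opposite under the 2 watering regimes: the watered 6PP libraries lay wholly below watered polymer, while the drought 6PP library lay above drought polymer. They were PHAVU_001G083800g, PHAVU_009G042800g, PHAVU_002G300200g, PHAVU_001G247100g and PHAVU_008G172800g, and no member was in both sets. Of all genes, 7.4% had watered 6PP wholly below watered polymer, and none of the 5 passed the edgeR test for 6PP in watered plants, where the smallest FDR of any member was 0.874. In PHAVU_002G300200g, for example, TPM was 319.2 in the drought 6PP library, 49.8, 59.9 and 64.0 in drought polymer, 20.6, 28.1 and 41.4 in watered 6PP and 44.2, 44.1 and 44.6 in watered polymer. The difference was not tested in either set: the single drought 6PP library chose the members, which fixed its side of both contrasts.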

How the results depend on the processing

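The count of members called higher in drought polymer was 6, and it was 11 with all 10 libraries in the fit, 27 with DESeq2, 41 at an FDR of 0.05 alone and 3 to 6 with 1 library left out; the count called lower was 0, and 1 with DESeq2, 5 at an FDR of 0.05 alone and 0 with any library left out. Over all genes the counts were 1089 higher and 1625 lower, 2666 and 3636 with DESeq2 and 5938 and 6504 at an FDR of 0.05 alone; with 1 library left out they were 655 to 823 and 985 to 1294. No alternative called a member for 6PP in watered plants. With the replicate block the counts were 4 higher and 0 lower for drought (817 and 1392 over all genes) and 0 for 6PP; same-numbered samples did not deviate together (correlations of -0.08 to 0.05 for drought and -0.02 to 0.18 for 6PP), so the numbers were not taken as pairs. The members with another member as next gene numbered 6, and 2 when ranked by CPM of total or of unique reads, 11, 15, 13 and 19 with at most 2 or 5 genes between or starts within 50 or 100 kb, and 2 to 6 with 1 library left out (2 without drought polymer replicate 3). The median intron share of 5.93% was 34.3% when reads were pooled over members. The median log2 difference from drought polymer of 3.77 was 3.26 on log2(TPM + 1), 3.49 on log2(TPM + 0.1), where the median of all genes moved from -0.09 to -0.37, and 3.39 to 3.92 with 1 drought polymer library left out. Of the members, 72 stayed when ranked against drought polymer only and 86 to 100 with 1 library left out; single-exon members numbered 24 to 35. The causes of these shifts were not tested.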
